A study of Homo sapiens with 6 samples.

Results

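Chaperones of the endoplasmic reticulum (ER) lumen were examined in MM.1S, a long-established cell line from human multiple myeloma. The set held 10 genes, namely HSPA5, HSP90B1, HYOU1, DNAJB9, DNAJB11, DNAJC3, SDF2L1, MANF, CALR and CANX. Members were the probe sets whose platform annotation gave one of these symbols and no other. That rule found 15 probe sets for 9 of the 10 genes, out of 11963 genes with 19064 probe sets paired with a single symbol, and DNAJB11 had none. HSPA5, HYOU1, DNAJC3, SDF2L1 and MANF had 1 probe set each, HSP90B1 and DNAJB9 had 2, and CALR and CANX had 3. All 15 lay above the intensity filter, a geometric mean of 63.3.

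The groups were cells exposed to enzastaurin for 3, 6 or 12 h and untreated cells taken at the same 3 times, with 1 array for each. The dose, the vehicle and the number of cultures are not given in the labels, and the line is the only one on the arrays. Enzastaurin inhibits the beta form of protein kinase C, and the series was titled for ER stress and apoptosis through beta-catenin. A probe set value below is an Affymetrix MAS5 intensity on a linear scale, which can be compared between arrays for 1 probe set but not between probe sets. A ratio is the log2 intensity with enzastaurin minus that in untreated cells at the same time.

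The ER lumen is where secreted and membrane proteins fold. HSPA5 (BiP) binds unfolded chains and releases them in an ATP cycle that J-domain proteins start and that HYOU1, an exchange factor, resets, while CALR and CANX hold glycoproteins through their sugars. HSPA5 also keeps the stress sensors IRE1, PERK and ATF6 inactive, and when it is drawn to unfolded proteins, ATF6 and spliced XBP1 raise the chaperone genes and PERK raises ATF4 and CHOP. Plasma cells and myeloma cells secrete large amounts of immunoglobulin and depend on these chaperones.

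The elements through which ATF6 and XBP1 are known to act were sought in the promoters, since they show what the chaperone genes share in sequence. RefSeq promoter windows of build GRCh38.p14, from 250 bases before to 50 bases after each annotated start, were searched on both strands. ERSE was taken as CCAAT, then 9 bases of any kind, then CCACG. ERSE-II was ATTGG, then 1 base of any kind, then CCACG. UPRE was TGACGTGG, and the ATF4 element was TGATG, then 1 base of any kind, then AA. Only exact matches were counted, so copies that differ from these letters would be missed. All 10 genes had a window, and CANX had 4. Below are the windows of HSPA5, the head of the set, of HSP90B1 and HYOU1, which held more than 1 element, and of SDF2L1, whose values varied most, each in the direction of transcription with the elements in capitals.
HSPA5, chr9:125241294-125241593, minus strand: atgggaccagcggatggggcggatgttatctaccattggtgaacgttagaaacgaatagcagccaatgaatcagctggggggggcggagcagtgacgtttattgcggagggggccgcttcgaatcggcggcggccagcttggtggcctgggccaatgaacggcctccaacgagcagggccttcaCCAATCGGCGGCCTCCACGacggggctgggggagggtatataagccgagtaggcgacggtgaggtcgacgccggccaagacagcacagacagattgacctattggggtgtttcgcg
HSP90B1, chr12:103930160-103930459, plus strand: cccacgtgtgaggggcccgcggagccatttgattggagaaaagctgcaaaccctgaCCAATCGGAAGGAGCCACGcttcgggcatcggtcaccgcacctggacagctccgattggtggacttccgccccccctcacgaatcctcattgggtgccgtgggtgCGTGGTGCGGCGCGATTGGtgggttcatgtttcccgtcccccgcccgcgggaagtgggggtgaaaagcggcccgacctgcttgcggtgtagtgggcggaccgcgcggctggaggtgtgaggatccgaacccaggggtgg
HYOU1, chr11:119057156-119057455, minus strand: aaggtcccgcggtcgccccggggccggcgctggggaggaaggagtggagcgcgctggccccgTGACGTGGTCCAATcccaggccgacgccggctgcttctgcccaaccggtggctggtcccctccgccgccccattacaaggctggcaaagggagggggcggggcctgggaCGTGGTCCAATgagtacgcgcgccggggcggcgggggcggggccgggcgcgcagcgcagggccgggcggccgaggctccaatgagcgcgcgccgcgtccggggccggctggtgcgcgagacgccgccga
SDF2L1, chr22:21642052-21642351, plus strand: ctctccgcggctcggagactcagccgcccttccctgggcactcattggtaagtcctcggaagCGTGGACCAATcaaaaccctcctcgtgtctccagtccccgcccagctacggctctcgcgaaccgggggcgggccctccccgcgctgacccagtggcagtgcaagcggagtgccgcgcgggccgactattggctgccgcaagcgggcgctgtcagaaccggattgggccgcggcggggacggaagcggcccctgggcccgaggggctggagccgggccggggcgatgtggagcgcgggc

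HSPA5 held 1 ERSE, which began 66 bases before the start. HSP90B1 held 2, beginning 194 and 89 bases before it, of which the nearer was on the opposite strand. CALR held 1 on the opposite strand, beginning 225 bases before the start. In CANX, 3 of 4 windows held an ERSE, beginning 151, 9 and 189 bases before their starts. Windows of different starts can overlap, so these may be the same stretch of genome. HYOU1 held 2 copies of ERSE-II at 185 and 79 bases before the start, the farther one overlapped by the UPRE, and SDF2L1 held 1 at 188 bases, all 3 on the opposite strand. These letters were not found in the windows of DNAJB9, DNAJB11, DNAJC3 and MANF, and the ATF4 element in none of the 10 genes. Thus 6 of 10 genes held ERSE or ERSE-II, against 0.161 percent of the 27305 genes with a window (44 genes). The elements were chosen as known ones of factors that raise chaperone genes, so this share is a description and not a test. ERSE alone was in 0.0916 percent of genes, ERSE-II in 0.0696 percent, UPRE in 0.927 percent and the ATF4 element in 4.46 percent. Among the other gene lists, CRELD2, ERO1B, PDIA6, HERPUD1 and XBP1 held one of the first pair. A match describes the letters and is not evidence that a factor bound there.

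**Figure D1:**
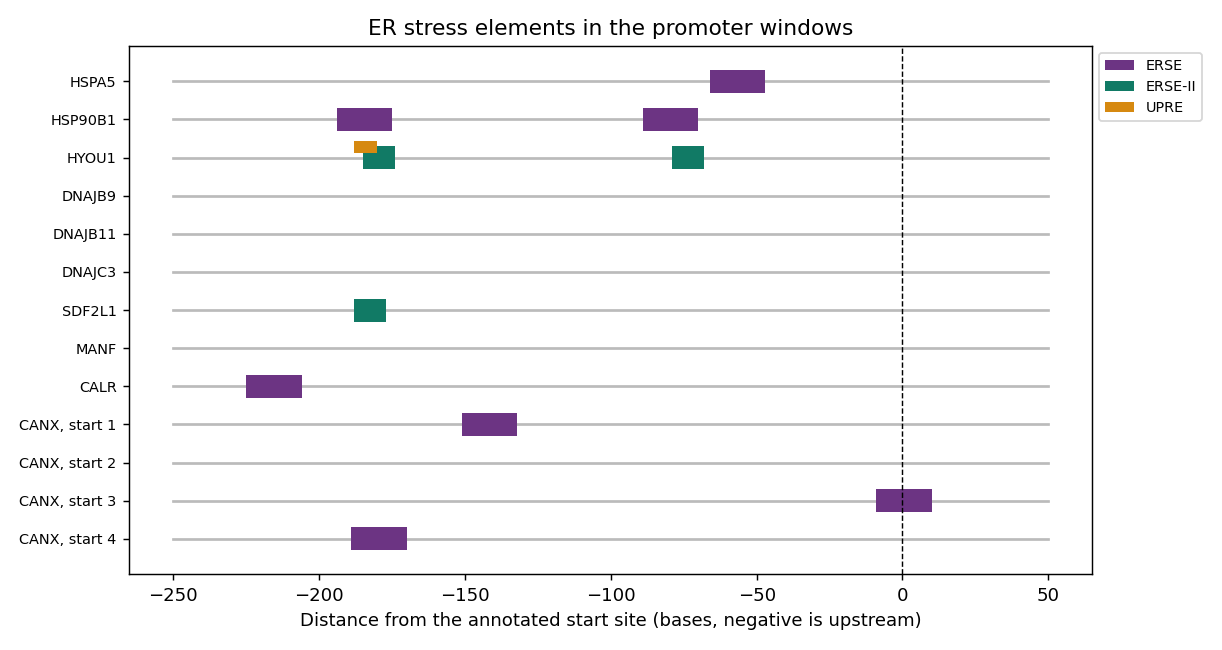
Positions of ERSE (purple), ERSE-II (green) and UPRE (orange) in the promoter windows of the 10 genes, with distance in bases from the annotated start site on the horizontal axis and 1 row for each window. Elements lie in 8 of the 13 windows, and those of DNAJB9, DNAJB11, DNAJC3, MANF and the second CANX window are without one.

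The labelled cell type was checked against marker genes. All 8 listed plasma cell markers, among them SDC1, TNFRSF17 and IRF4, lay above the filter. Their summed intensity, to which bright probe sets add most, was 12162 to 15852 on enzastaurin arrays and 14766 to 20316 on untreated arrays. Single markers differed more, and not all the same way. TNFRSF17 had 2970, 2119 and 528 after 3, 6 and 12 h with enzastaurin, against 3003, 4308 and 4474 in untreated cells. IRF4 had 1403, 788 and 1221 under enzastaurin and 1590, 2901 and 3058 in untreated cells. Both, like CD38, were below untreated cells at every time. XBP1 rose above untreated cells after 3 h, with 5229, 6896 and 6189 under enzastaurin and 5604, 5010 and 5177 without it. SDC1, PRDM1, SLAMF7 and MZB1 exceeded untreated cells in the first array pair and fell short of them in the later pairs. None of 4 T cell and none of 4 monocyte markers lay above the filter, and CD22, NCR1, HBB and COL1A1 were the only other listed markers that did. Median intensity was 62.2 to 67.6 over the 6 arrays. The arrays stood apart in the ribosomal RNA probe sets, whose mean log2 intensity differed between enzastaurin and untreated cells by 6.61, -8.19 and -6.27 at the 3 times in order. The 5' probe set of the ACTB control had ratios of -0.57, 0.83 and 0.76 at 3, 6 and 12 h, and the 3' one -0.46, 0.24 and 0.02. The ACTB 3' minus 5' log2 value, a measure of RNA quality, differed by 0.11, -0.59 and -0.74 in the same order. That of the GAPDH control differed by -0.05, -0.33 and -0.07. In bulk RNA, fewer cells of a kind and less RNA per cell cannot be told apart.

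The first question was whether enzastaurin altered the chaperones across the 3 times. No chaperone passed the test, and 6 of 9 had a mean ratio above 0. The median of their mean ratios was 0.18, against -0.05 over all 6838 genes tested, of which 43.4 percent were above 0. The effect was the mean of 3 time-matched ratios in limma, and an adjusted p under 0.05 (Benjamini-Hochberg over all genes) was called. It called 0 of the 9 chaperones, where 0.0585 percent of all genes (4 genes) were called. At an unadjusted p under 0.05 there was 1 chaperone, DNAJC3, and there were 370 genes in all. Errors below are moderated standard errors (SE, n = 3 ratios). They count a true difference between times as error, and nothing in the labels says that arrays came from separate cultures, so the spread may be technical.

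HSPA5, the main ER member of the HSP70 family, had intensities of 3652, 4139 and 2361 after 3, 6 and 12 h with enzastaurin, against 3466, 3307 and 3593 in untreated cells. The 12 h enzastaurin array was the lowest of the 6 and the 6 h one the highest, so the groups overlapped. The untreated arrays spanned 0.12 on the log2 scale and the enzastaurin arrays 0.81. The ratios of 0.08, 0.32 and -0.61 gave a mean of -0.07 (SE 0.20, 95 percent interval -0.51 to 0.37, adjusted p = 0.999). A mean increase of 2-fold lies outside that interval. Without the 12 h pair the mean was 0.20, so its sign rests on that time. At 12 h the median ratio of all genes was -0.18, and the HSPA5 ratio was lower than that.

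HYOU1, a large relative of the same family that serves HSPA5 as exchange factor, had 1871, 3206 and 2429 under enzastaurin and 1950, 2200 and 2074 in untreated cells. Its 6 h and 12 h enzastaurin arrays were above all untreated arrays, and the 3 h one was below them. The mean ratio was 0.24 (SE 0.21, 95 percent interval -0.21 to 0.69, adjusted p = 0.986), and it was 0.084 without the 6 h pair and 0.39 without the 3 h pair. HYOU1 and the dimmest CALR probe set had the highest correlation of log2 intensity among the 105 pairs of chaperone probe sets (Pearson r = 0.96 over 6 arrays). That value is a description of arrays that share their scaling.

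HSP90B1 (GRP94), the ER member of the HSP90 family, was read by a pair of probe sets that did not run alike. The brighter, which entered the fit, had 1438, 2043 and 1012 under enzastaurin and 1475, 2112 and 1289 in untreated cells. It followed the same course with time in both groups and was lower with enzastaurin at each time, by 0.04, 0.05 and 0.35 on the log2 scale (mean ratio -0.14, SE 0.22, adjusted p = 0.999). The dimmer had 687, 1301 and 937 under enzastaurin and 912, 885 and 596 in untreated cells. Its ratios of -0.41, 0.56 and 0.65 changed sign between 3 h and 6 h. So did those of the ACTB 5' and 3' controls given above, whose part was not tested. Both HSP90B1 probe sets carry the suffix for probe sets in which some probes can match other transcripts, and their correlation over the 6 arrays was 0.44. With the median over probe sets the mean ratio of HSP90B1 was 0.06, so no direction is given for this gene.

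The J-domain proteins had the highest mean ratios in the fit. DNAJC3 (P58IPK), a lumenal partner of HSPA5 first described as an inhibitor of the kinases PKR and PERK, had 170, 401 and 253 under enzastaurin and 103, 234 and 107 in untreated cells. It was higher with enzastaurin at each time, and the groups overlapped, since untreated cells at 6 h were above treated cells at 3 h. Ratios of 0.73, 0.78 and 1.25 gave a mean of 0.92, a 1.89-fold difference (SE 0.30, 95 percent interval 0.27 to 1.57). The adjusted p was 0.592 in limma, and over the alternative settings it was 0.121 or higher, with mean ratios of 0.75 to 1.01. This unadjusted interval lies above 0, but the ratio did not pass the test over all genes.

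DNAJB9 (ERdj4), which is known to bind HSPA5 and the sensor IRE1, was higher at 3 h and less so at each later time in both of its probe sets. The brighter had 3613, 3432 and 2186 under enzastaurin and 2283, 2614 and 2296 in untreated cells, with ratios of 0.66, 0.39 and -0.07. The dimmer had 499, 278 and 253 under enzastaurin, against 215, 175 and 207 in the untreated arrays, with ratios of 1.22, 0.67 and 0.29. In the dimmer the groups did not overlap, and in the brighter they did. The brighter entered the fit (mean ratio 0.33, SE 0.20, adjusted p = 0.980, slope per doubling of hours -0.37, SE 0.23, adjusted p = 0.583). Its mean was 0.16 without the 3 h pair and 0.53 without the 12 h pair. With every probe set tested, the dimmer had a mean of 0.73 (SE 0.32, adjusted p = 0.846). Neither the level nor the downward course passed.

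MANF, a small secreted protein that binds HSPA5 and is induced by ER stress, had 1841, 2205 and 1695 under enzastaurin and 1546, 1612 and 1507 in untreated cells. Every enzastaurin array was above every untreated one. The differences were small, with ratios of 0.25, 0.45 and 0.17 and a mean of 0.29, or 1.22-fold (SE 0.21, adjusted p = 0.980). By the brightest probe set of each gene, MANF alone of the 9 genes had groups that did not overlap with enzastaurin higher, where 3.47 percent of all genes were like that. The dimmer DNAJB9 probe set, given above, was not in that count. No gene had enzastaurin lower without overlap, where 7.18 percent of all genes did. By the same probe sets DNAJC3 and MANF were higher at all 3 times, against 9.14 percent of all genes. The brighter HSP90B1 probe set, but not the dimmer, was lower at all 3, against 14.2 percent.

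**Figure D2:**
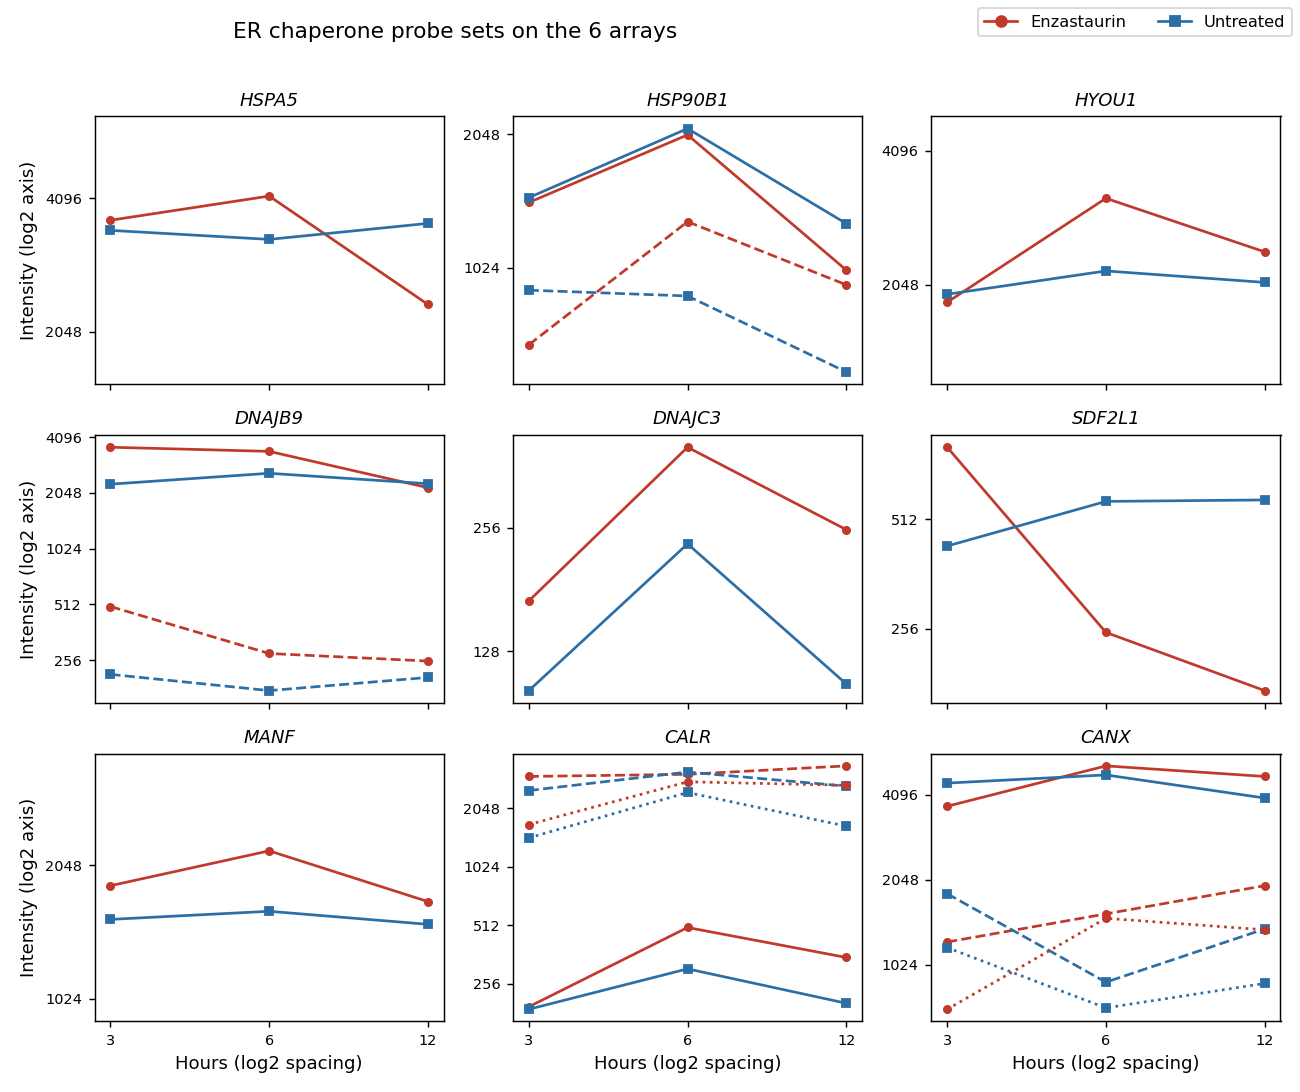
Intensity of the 15 probe sets (log2 axis, 1 panel for each gene) against hours, with 1 array per point, enzastaurin in red circles and untreated in blue squares; solid, dashed and dotted lines are different probe sets of 1 gene. DNAJC3 and MANF lie above untreated cells at each time, and SDF2L1 is at 806 at 3 h and at 250 and 173 at 6 h and 12 h with enzastaurin.

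Calreticulin (CALR) and calnexin (CANX), the lumenal and the membrane-bound lectin chaperones, were each read by 3 probe sets. The CALR probe set in the fit had 2978, 3055 and 3375 under enzastaurin and 2520, 3139 and 2655 in untreated cells (mean ratio 0.18, SE 0.18, adjusted p = 0.988, with 0.10 without the 12 h pair and 0.29 without the 6 h pair). The next had 1685, 2795 and 2682 under enzastaurin and 1439, 2463 and 1653 in untreated cells, and the dimmest 195, 498 and 349, against 189, 305 and 203 without it. The mean ratios of these were 0.37 and 0.51. Of the 9 CALR ratios 8 were above 0, and the 6 h ratio of the brightest, -0.04, was not. The groups overlapped in each probe set. The fitted probe set and the next, but not the dimmest, carry the suffix described above for HSP90B1.

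CANX was lower with enzastaurin at 3 h and higher at 6 h and 12 h in all 3 of its probe sets. The brightest, which entered the fit, had 3736, 5195 and 4765 under enzastaurin and 4514, 4825 and 3996 in untreated cells. Its ratios of -0.27, 0.11 and 0.25 had a mean of 0.03 (SE 0.16, adjusted p = 0.999). The second had 1233, 1551 and 1953 under enzastaurin and 1828, 888 and 1371 in untreated cells, with ratios of -0.57, 0.80 and 0.51. The third had 712, 1497 and 1362 under enzastaurin and 1178, 720 and 879 in untreated cells, with ratios of -0.73, 1.06 and 0.63. Groups overlapped in all 3. The third was the only CANX probe set past 2-fold at any time, at 6 h. The ACTB 5' control, at -0.57, 0.83 and 0.76, had the same signs, as did the ACTB 3' control at -0.46, 0.24 and 0.02. The part of either control in the CANX ratios was not tested. No CANX slope passed the test, with every probe set tested (adjusted p of 0.388 or higher).

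**Figure D3:**
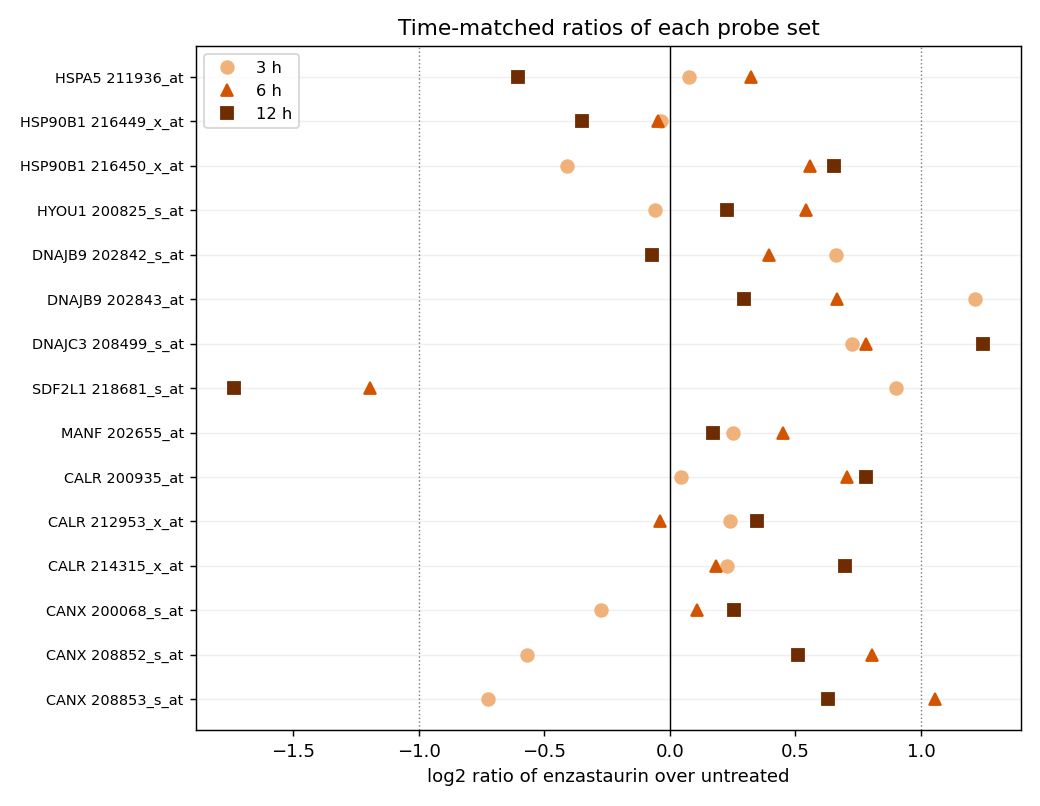
log2 ratio of enzastaurin over untreated for each of the 15 probe sets (rows, named by gene and probe set) at 3 h (circles), 6 h (triangles) and 12 h (squares), with dotted lines at 2-fold. The 3 CANX probe sets lie below 0 at 3 h and above it later, and SDF2L1 runs the other way, from 0.90 at 3 h to -1.74 at 12 h.

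SDF2L1, a lumenal partner of DNAJB11 that helps keep unfolded proteins soluble, was the chaperone whose ratio differed most between times. It had 806, 250 and 173 after 3, 6 and 12 h with enzastaurin, against 432, 572 and 578 in untreated cells. The 3 h enzastaurin array was the highest of the 6, and the 6 h and 12 h ones were the lowest. Ratios were 0.90, -1.19 and -1.74. The slope per doubling of hours was -1.32 (SE 0.37, 95 percent interval -2.04 to -0.59, adjusted p = 0.0329 in limma), which was called. As for every slope of this fit, the error rests on the prior from all genes alone and holds none of the gene's own spread. A steady course and a step after 3 h cannot be told apart by this slope. Among all genes 0.921 percent had a called downward slope and 0.512 percent an upward one, and no other chaperone had either. The mean over times, -0.68 (SE 0.44, adjusted p = 0.980), was not called.

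The SDF2L1 result depended on the setting. The slope was -1.23 with equal medians of the kept genes (adjusted p = 0.336), -1.28 with quantile normalization (0.181) and -0.26 per hour in linear hours (adjusted p = 0.446), and none of these was called. Without the 3 h pair the mean of the 6 h and 12 h ratios was -1.47 (SE 0.33, n = 2 ratios, adjusted p = 0.0171 in limma). That fit called 2.08 percent of all genes lower and 1.54 percent higher, and SDF2L1 was the only chaperone among them. Without the 6 h and without the 12 h pair the mean was -0.42 and -0.15. The ribosomal RNA and ACTB 3' minus 5' differences given above had the same signs as the SDF2L1 ratio at all 3 times. The GAPDH 3' minus 5' difference had the same sign at 6 h and 12 h only. With the ribosomal RNA intensity in the fit the mean ratio of SDF2L1 was -0.25 (SE 0.31, adjusted p = 0.999). A slope with that covariate had no residual degrees of freedom, and the part of these array measures in the slope was not tested.

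**Figure D4:**
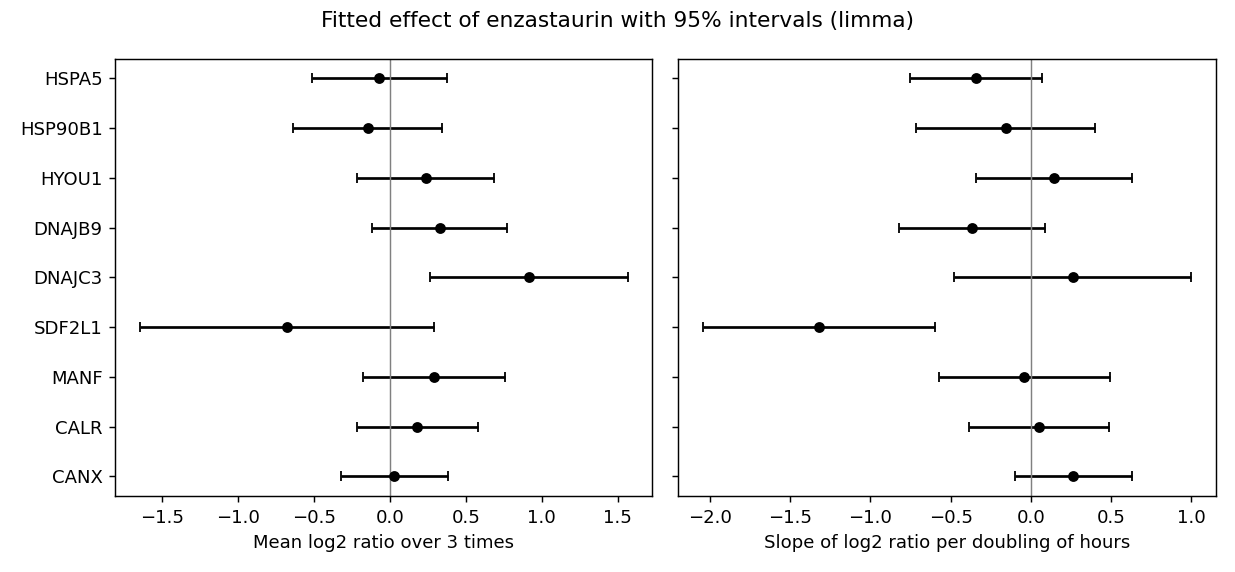
Mean log2 ratio of enzastaurin over untreated (left) and slope of that ratio per doubling of hours (right) for the 9 genes, as points with 95 percent intervals from limma, unadjusted for the number of genes. The interval of DNAJC3 lies above 0 on the left, and that of SDF2L1 lies below 0 on the right.

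Single times had 1 array on each side and no test, so differences of 2-fold or more were counted. The count used the brightest probe set of each gene, so 2 others past 2-fold higher, the dimmer DNAJB9 one at 3 h and the third CANX one at 6 h, did not enter. By that count no chaperone after 3 h was 2-fold higher or lower, against 1.89 percent and 2.65 percent of all genes. After 6 h none was 2-fold higher, against 5.6 percent, and SDF2L1 was lower, against 3.22 percent. After 12 h DNAJC3 was 2-fold higher, against 3.88 percent, and SDF2L1 lower, against 10.4 percent. The medians of the 9 genes were 0.24, 0.32 and 0.17 at 3, 6 and 12 h, and those of all genes -0.04, 0.06 and -0.18. By probe set, 9, 12 and 11 of 15 ratios were above 0 at these times. Arrays within a treatment were farther apart with enzastaurin in 8 of the 9 genes (median log2 range 0.78 with enzastaurin and 0.27 in untreated cells), against 56.1 percent of all genes. By probe set this held for 12 of 15, with medians of 0.81 and 0.42.

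**Figure D5:**
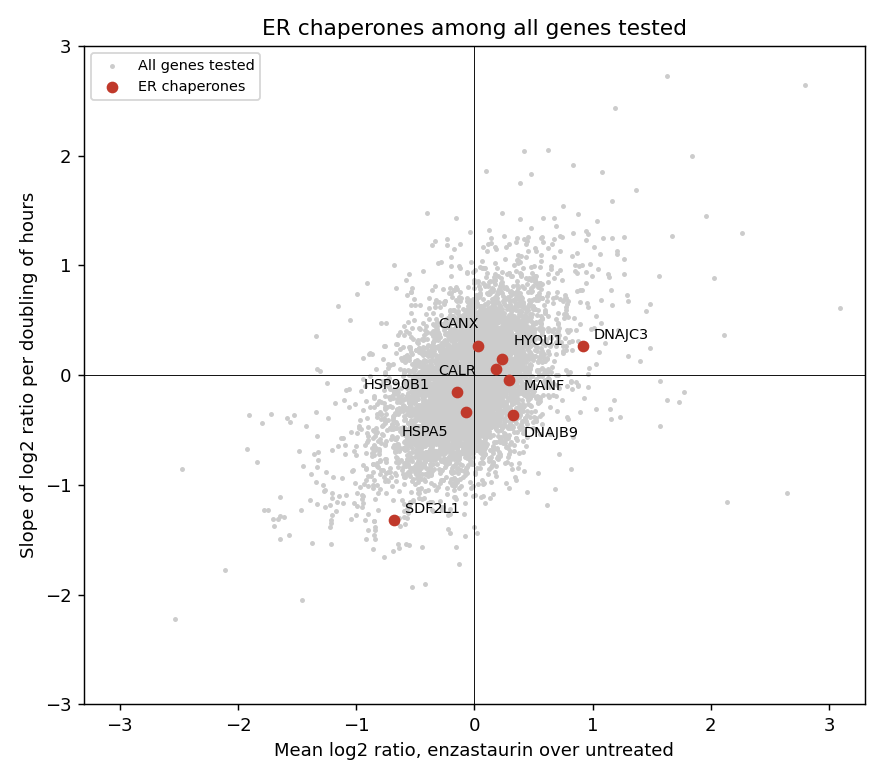
Mean log2 ratio over the 3 times (horizontal) against its slope per doubling of hours (vertical) for the 6838 genes tested (grey) with the 9 chaperones in red. Among the 9, DNAJC3 has the highest mean ratio, 0.92, and SDF2L1 the lowest slope, -1.32. Mean ratios of all genes run from -2.53 to 3.09.

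Genes whose log2 intensity ran most like that of HSPA5 over the 6 arrays were VN1R1, SEC62, MON2, SLC25A44 and MPC1 (Pearson r of 0.98 to 0.99). SEC62, a subunit of the ER translocon, had 2156, 2659 and 1263 after 3, 6 and 12 h with enzastaurin, against 2022, 1878 and 2312 in untreated cells. As in HSPA5, its 12 h enzastaurin array was the lowest of the 6. Most like SDF2L1 were NDUFB8, BCKDHA, ATP5MC2, IZUMO4 and NMT1 (r of 0.99 each). NDUFB8, a subunit of respiratory complex I, had 3030, 2139 and 1885 under enzastaurin and 2401, 2780 and 2742 in untreated cells. These are the highest correlations among all non-member genes tested, over arrays that share their scaling.

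Other genes of ER folding were read beside the chaperones. No listed gene passed for the treatment effect in any list, against 0.0585 percent of all genes. Of the enzymes and partners of glycoprotein folding 8 of 14 tested were above 0, with a median of 0.05. GANAB, the catalytic subunit of glucosidase II, had ratios of 0.10, -2.37 and -1.19 and MOGS, glucosidase I, 0.37, -1.01 and -1.48. Both trim the sugars that CALR and CANX read, and DDOST of the oligosaccharyltransferase had 0.17, -0.67 and -0.95. CLGN, a relative of calnexin, had a mean of 0.51.

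Disulfide isomerases and oxidases were above 0 in 6 of 12 (median -0.02). PDIA3, the isomerase that works with CALR and CANX, had ratios of -0.11, -2.56 and -2.56 (mean -1.74, SE 0.44, adjusted p = 0.397; slope -1.23, SE 0.36, adjusted p = 0.0510). It had 809, 180 and 139 under enzastaurin and 871, 1062 and 817 in untreated cells. ERP29, a lumenal folding factor, had ratios of 0.60, -1.80 and -1.78 and was the 1 gene of this list called for a downward slope (-1.19, SE 0.34, adjusted p = 0.0342). Of all genes 0.921 percent were called downward. The ratios of ERP29 had the signs of the ribosomal RNA and ACTB 3' minus 5' differences. So did those of GANAB, MOGS, DDOST and PDIA4 and, in the lists below, FKBP2, VCP, TRAP1 and HSPA4. The share of all genes with these signs was not counted. The GAPDH 3' minus 5' difference had these signs at 6 h and 12 h only, and the part of these measures was not tested. With equal medians of the kept genes 0 genes were called for a slope in limma (675 at an unadjusted p under 0.05). The ERP29 call and those of UBE2J1, EDEM1 and SLC7A11 below were lost there. PDIA4 had a mean of -0.30 and ERO1A, the main ER oxidase, 0.33.

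Exchange factors and other ER chaperones were above 0 in 8 of 12 (median 0.03). FKBP2, a lumenal prolyl isomerase, had ratios of 0.36, -2.38 and -1.98, whereas HSPA13, a further HSP70 relative, had 0.25, 0.71 and 0.45. The receptors that return lumenal proteins from the Golgi had means of 0.44 (KDELR1) and 0.40 (KDELR3). In ER-associated degradation 8 of 15 were above 0 (median 0.02). The slope was called downward for the ubiquitin-conjugating enzyme UBE2J1 (-1.10, SE 0.26, adjusted p = 0.00722) and upward for EDEM1, a lectin that hands misfolded glycoproteins to degradation (1.26, SE 0.29, adjusted p = 0.00460). Of all genes 0.921 percent were called downward and 0.512 percent upward. The ratios of EDEM1, -0.72, 0.63 and 1.80, had the signs of the ACTB 5' and 3' controls, whose part was not tested. VCP, the ATPase that extracts misfolded proteins, had a mean of -0.79 and EDEM3 -0.47.

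Sensors and factors of the response were above 0 in 5 of 13 (median -0.09). XBP1 had a mean of 0.21 and ATF6B -0.91. MBTPS1 and MBTPS2, the proteases that release active ATF6, had means of 0.37 and 0.55, and CREB3 had 0.50. MBTPS2 passed the filter only through its enzastaurin arrays, with 58.7, 49.5 and 56.0 in untreated cells. ATF6B passed only through its untreated arrays, with 111, 51.5 and 35.9 under enzastaurin. The list of ATF4 and CHOP targets, which also held ATF4 and DDIT3 (CHOP) themselves, was above 0 in 12 of 13, against 43.4 percent of all genes. Of these 13, 9 were higher at all 3 times, against 9.14 percent of all genes. The median was 0.95, against -0.05 over all genes. No count was made without genes that passed the filter only through their enzastaurin arrays. Of those named here, CHAC1 and SLC7A11 enter these figures although only their enzastaurin arrays brought them past the filter. CHAC1 had 695, 52.2 and 287 under enzastaurin and 25.4, 35.9 and 46.7 in untreated cells, where the filter was a geometric mean of 63.3. Mean ratios were 1.77 for DDIT3, 1.73 for DDIT4, 1.63 for ATF3 and 0.26 for ATF4 itself. Neither these genes nor CHAC1 were called for treatment. SLC7A11, the cystine transporter, was called for an upward slope (1.41, SE 0.41, adjusted p = 0.0429), as were 0.512 percent of all genes. It had 131, 51.0 and 249 under enzastaurin and 143, 34.5 and 38.8 in untreated cells, so 3 of its 6 values lay under that filter. Cytosolic and mitochondrial chaperones were above 0 in 2 of 14 (median -0.16). Among them TRAP1 had a mean of -0.62, HSPA4 -0.52, DNAJA1 -0.33 and HSPH1 -0.32. The difference between any of these lists and the ER lumenal chaperones was not tested, and the lists were chosen with earlier results of these data known.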

How the data were processed

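The authors deposited 1 table of probe set intensity values on a linear scale. The submitters' processing notes name MAS5, without its version or scaling target, which no other label gives. RNA was labelled as biotinylated cRNA, per the labels' protocols.

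The authors' scaling was kept, since array medians differed by at most 0.12 on the log2 scale. The deposited values were floored at 1 and put on the log2 scale. Of 22277 probe sets, 62 were controls. Symbols came from the platform annotation of the array and were updated through Entrez identifiers (RefSeq, GRCh38.p14, 19052 of 19064 matched). The upper 50 percent by mean log2 intensity were kept, with the brightest probe set for each gene, which left 6838 genes. Treatment, with the time point as a block, and its slope on log2 hours were fitted in limma 3.58.1 (R 4.3.3) by lmFit and by eBayes with an intensity trend. These fits had 2 and 1 residual degrees of freedom. The prior had 9.26 for treatment and was infinite for slopes, so slope errors rest on the prior alone. Both fits were tested on simulated data with independent noise for each gene and array. Those data held no shifts shared by the genes of an array, so they do not bear on the calls under such shifts. Alternatives changed the filter, the probe set rule, the scaling, the pseudocount, the trend, the time block, the time scale, a ribosomal RNA covariate and the time pairs used. The number of arrays limits the precision.

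Members and lists were chosen with earlier results of these data known. Every member was named. Of each list the 4 genes with the largest size of mean ratio, in either direction, were named, with PDIA3, DDIT3, XBP1 and ATF4 in any case, and SLC7A11 was added after its values were seen. For HSPA5 and SDF2L1 the 5 genes with the highest correlation were named.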

Additional observations from a re-analysis of the deposited data

Results flagged for a closer look

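The SDF2L1 response to enzastaurin differed between times by the test of its slope (-1.32 per doubling of hours, SE 0.37, adjusted p = 0.0329 in limma, 3 time-matched ratios). That SE rests on the prior from all genes alone and holds none of the spread of SDF2L1 itself. The ratio was above 0 at 3 h and below 0 at 6 h and 12 h. The slope was not called with equal medians (adjusted p = 0.336), with quantile normalization (0.181) or in linear hours (0.446). The ribosomal RNA and ACTB 3' minus 5' differences had the same signs as the ratio at all 3 times, and the GAPDH one at 6 h and 12 h only. The part of these differences in the ratio was not tested. The probe set is the only one for this gene on the array, and each ratio rests on 1 array of each treatment.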

How the results depend on the processing

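With a single array for each treatment and time, no single time has an error, and 6 arrays limit the precision. Of 108 alternative values of the treatment effect of the 9 genes, 102 kept their sign and side of the threshold, 5 changed sign and 1, SDF2L1 without the 3 h pair, became called. Of 72 slopes 66 did so, 3 changed sign and 3, all of SDF2L1, lost the call. Where the cause of a difference is not given below, the cause was not tested.

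Leaving out a time pair gave 0 to 1 chaperones called, 0 to 247 genes called, -0.26 to 0.20 for the mean ratio of HSPA5 and -0.083 to 0.18 for that of CANX. Genes called for treatment were 4, and were 1 with no filter, 0 with no intensity trend (360 at an unadjusted p under 0.05 in limma), 2 with no time block, which ends the pairing by time, and 74 with ribosomal RNA as a covariate, where CANX was at -0.053. With the median over probe sets HSP90B1 had a mean of 0.061 and a slope of 0.19, since its pair of probe sets disagree. Genes called for the slope were 98, and were 151 with no filter, 0 with equal medians (675 at an unadjusted p under 0.05), 7 with quantile normalization and 1 in linear hours. The last 3 called 0 chaperones, of which 2, 2 and 1 had an unadjusted p under 0.05 in limma. The slope of MANF, -0.04, was 0.045 and 0.047 with equal medians and with quantile normalization. Counts of chaperones 2-fold apart at single times were the same under all 4 alternatives run. Slopes without a time pair were not run, since no residual degrees of freedom are left.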

Other observations

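A further 2 probe sets were annotated to HSP90B1 together with the microRNA gene MIR3652 and were left out by the rule on single symbols. The first had 3433, 4880 and 3595 after 3, 6 and 12 h with enzastaurin, against 3470, 4717 and 3125 in untreated cells, and a mean log2 ratio of 0.08. The second had 3088, 4103 and 2497 under enzastaurin and 3944, 3422 and 3513 in untreated cells, and a mean of -0.19. Its ratios were -0.35, 0.26 and -0.49. In both the groups overlapped.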
